A study of Mus musculus with 22 samples.

Results

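The livers of 3 hbHep mice were compared with the livers of 3 FAH mice on NTBC by RNA sequencing. By the title of the series, hbHep are hepatocyte-like cells that hepatoblastoma cells turn into once YAP1 is inhibited, and the comparison asks how their RNA differs from that of liver. The hbHep libraries were labelled with day 121 (mouse 1), day 114 (mouse 2) and day 117 (mouse 3), and each mouse had 2 technical libraries, which were averaged. With 1 library for each of the 3 FAH mice, 9 of the 22 samples of the series entered the comparison, chosen by their labels alone. Both groups carry the FAH Delta Exon 5 genotype, a deletion in the gene of fumarylacetoacetate hydrolase (Fah), so the controls are not livers with a working Fah gene even though their labels also hold the letters WT. NTBC, which the FAH mice received, inhibits tyrosine breakdown upstream of Fah and keeps animals without this enzyme alive. Whether the hbHep mice received NTBC, and the strain, sex and age of both groups beyond this genotype, are not stated in the labels. RNA was taken from fresh or flash-frozen liver, so every library holds the RNA of all cells in the piece, and the share of hbHep among them is not given.

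Hepatoblastoma is a liver cancer of early childhood in which beta-catenin, the effector of Wnt signaling, is commonly mutated and YAP1, the effector of the Hippo pathway, is often active. In normal liver the hepatocytes around the central vein receive Wnt signals and make glutamine from ammonia, while those around the portal vein carry out urea synthesis, glucose production and amino acid breakdown. This division of labor is called zonation, and beta-catenin is known to drive its pericentral side. In the text below, abundance is the deposited signal after scaling between samples. The unit was read from a name as scaled reads per base, and how length was treated is not stated, so levels were compared between samples and never between genes. A gene was called when its adjusted p in limma was under 0.05, and "higher" and "lower" are said of hbHep and only of called genes. Values per mouse are given in the order of mice 1, 2 and 3, hbHep first. Tumor levels are medians of 4 tumors from 1 mouse in each state (YAP1 ON tumors, and tumors 6 days after YAP1 was switched off), from another strain background, and were not tested here.

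Read depth is not given with the signal. A step of 1 read accounted for only 33.9 to 42.7% of the low values, so the depth read from such steps, 17.2 to 21.7 M reads for hbHep and 20.45 to 29.23 M for FAH liver, is rough. Mitochondrial genes took 3.36 to 4.49% of the signal. Across genes, log2 values correlated at 0.978 to 0.983 within a technical pair and at 0.954 to 0.974 between hbHep mice. The Y-linked gene Uty, read as a check, lay at 1115, 1074 and 992 against 964, 869 and 1056, so all 6 mice expressed it. Its tumor medians were far lower, 71.1 in YAP1 ON tumors and 76.4 in day 6 tumors. Ddx3y, also Y-linked, was 2561, 1880 and 1691 against 3456, 2264 and 2395, with tumor medians of 27.2 and 17.6. The part of sex in differences from the tumors was not tested. FAH mouse 2 stood apart in Gm10800, a gene that resembles satellite repeats: it was 2552413 there, against 35272 and 1116 in FAH mice 1 and 3 and 307 to 961 in hbHep. Counts of at least 3 that changed by more than 1.5 times without a mouse are given with that mouse. Changes of smaller counts are given only in part.

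Of 16498 genes tested, 4305 were called, which is 26.1%. The split was 2351 genes higher (14.3%) and 1954 lower (11.8%), and the median log2 fold change of all genes was -0.03. Both shares are the background for each list count below, and a list near them shows nothing particular to its members. A difference of at least 2-fold was found for 1744 of the higher and 876 of the lower genes, and one of at least 8-fold for 257 and 124. The 2 groups did not overlap in 7416 of the 16498 genes, called or not, so a lack of overlap in a single gene is common. Leaving out FAH mouse 1 gave 1235 lower and 1910.0 higher genes.

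**Figure D1:**
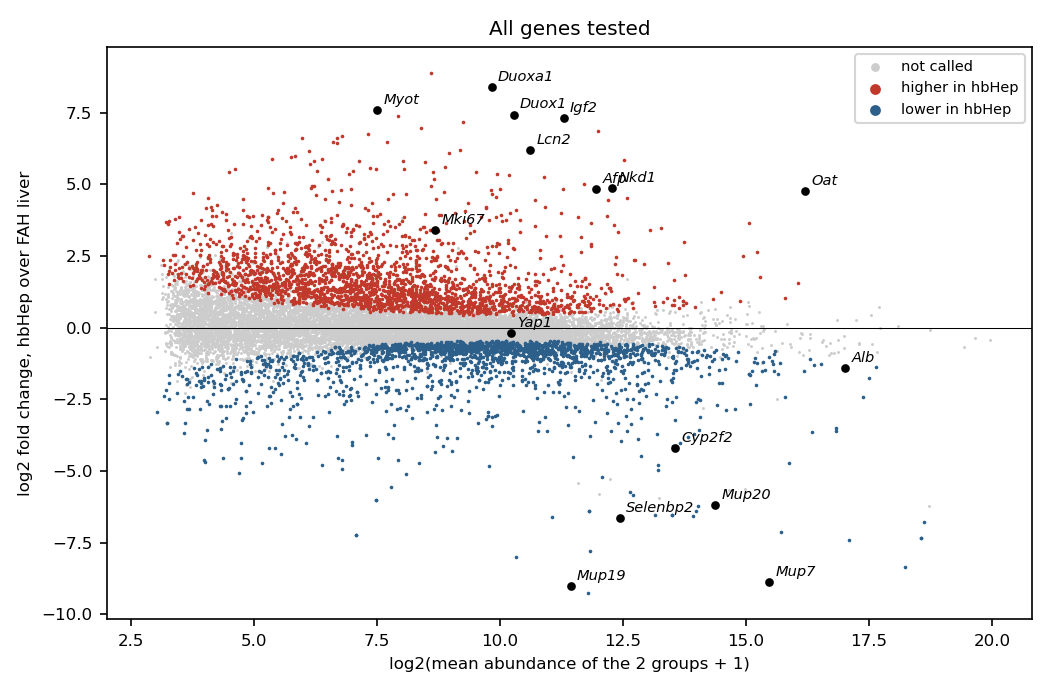
Each point is 1 of 16498 genes, with the mean abundance of both groups on the x axis (log2) and the log2 fold change of hbHep over FAH liver on the y axis. Colored points were called by limma (adjusted p under 0.05, 3 mice per group): 2351 red points are higher in hbHep and 1954 blue points lower, the Mup genes lying farthest down and Duoxa1 (8.39) near the top, while Yap1 lies close to 0.

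Yap1 did not pass the test between hbHep and FAH liver. Yap1 (ENSMUSG00000053110, chromosome 9, 7931999 to 8004638), the transcriptional co-activator that drives these tumors, was 937, 1135 and 1308 against 1308, 1136 and 1356 (log2 fold change -0.18, SE 0.17, adjusted p = 0.48; exact permutation test, two-sided, p = 0.3), and the groups overlapped. Its level was 8803 in YAP1 ON tumors and 1163 in day 6 tumors. Ctnnb1 (ENSMUSG00000006932, chromosome 9, 120933400 to 120960507), the gene of beta-catenin, was 1.8-fold higher in hbHep (4981, 4398 and 4605 against 2776, 2419 and 2567; log2 fold change 0.85, SE 0.15, adjusted p = 0.00315), with no overlap, and stood at 11566 in YAP1 ON tumors and 12413 in day 6 tumors. The exact permutation test gave p = 0.1 for Ctnnb1, the smallest value that 3 mice against 3 allow. Fah (ENSMUSG00000030630, chromosome 7, 84585159 to 84605942) was 1158, 669 and 962 against 1834, 1566 and 1548, 1.81-fold lower (log2 fold change -0.86, SE 0.21, adjusted p = 0.0145; exact permutation p = 0.1). Reads of a gene with a deleted exon are still counted for the gene, so Fah does not check the labels. Its adjusted p without FAH mouse 1 was 0.058.

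Of the genes that YAP1 induces, a part was higher than in FAH liver. Among 23 YAP1 target genes tested, 13 were higher and 0 lower, with a median log2 fold change of 1.05. The counts were 11 higher and 2 lower without hbHep mouse 1. The classical target Ccn2, a matricellular protein, was 453, 359 and 369 against 282, 369 and 314 and was not called (log2 fold change 0.29, SE 0.18, adjusted p = 0.267), whereas Ccn1, its relative, was higher (365, 699.9 and 488 against 261, 258 and 165; log2 fold change 1.16, SE 0.27, adjusted p = 0.0123). Ptpn14, a phosphatase that binds YAP1 and is itself induced by it, was 546, 1424 and 678 against 40.1, 76.2 and 81.3, 12.7-fold higher (adjusted p = 0.000166). Nt5e, an ectoenzyme that makes adenosine, was 4.13-fold higher and its hbHep levels of 3259, 4386 and 2469 lay above both tumor medians (670.3 in YAP1 ON tumors and 1039 in day 6 tumors). Myof, a membrane repair protein, and the receptor kinase Axl were 4-fold and 3.38-fold higher. Ankrd1, a muscle ankyrin repeat protein used as a YAP1 reporter gene, was called as higher (19.4, 25.7 and 21.7 against 4.34, 7.42 and 0), but these low values compare with 709 in YAP1 ON tumors, and the call was lost without FAH mouse 1 or any 1 hbHep mouse. Birc5 stands in this list and in the mitosis list. Of 20 Hippo pathway components, 4 were higher and 0 lower (median 0.16), where 14.3% of all genes were higher. The 4 were Ptpn14, Wwtr1, Tead1 and Frmd6. Wwtr1 (TAZ), the paralog of YAP1, was 2749, 2208 and 2255 against 698, 578 and 654, 3.73-fold higher (adjusted p = 5.18e-05), and the groups lay far apart. Tead1, a DNA-binding partner of both, was 143, 273 and 179 against 32.4, 86.9 and 118 (adjusted p = 0.0374), not called without FAH mouse 1 or 2 or hbHep mouse 2 or 3. Only 2 of the 20 were called without hbHep mouse 2 and only 2 without hbHep mouse 3.

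Of 21 Wnt feedback and beta-catenin target genes tested, 14 were higher and 1 lower, with a median log2 fold change of 2.37. Apcdd1, an inhibitor that binds Wnt at the membrane, was 569, 813 and 937 against 14.7, 21.5 and 13.9, 43.5-fold higher (log2 fold change 5.44, SE 0.27, adjusted p = 2.53e-06), and it stood at 12.2 in YAP1 ON tumors and 12.04 in day 6 tumors. Nkd1, an inhibitor of Dishevelled, was 13126, 2907 and 12907 against 271, 234 and 306, so that hbHep mouse 2 was lower than the other two but still above every FAH liver (log2 fold change 4.87, SE 0.49, adjusted p = 0.000147). Axin2 (ENSMUSG00000000142, chromosome 11, 108917828 to 108950783), a scaffold of the complex that degrades beta-catenin and the usual reporter of the pathway, was 964, 1222 and 1231 against 79.8, 82.6 and 92.3 (log2 fold change 3.72, SE 0.18, adjusted p = 2.04e-06). All 3 hbHep values of Axin2 exceeded the tumor medians of 599 and 711. Lef1, a DNA-binding partner of beta-catenin, was 13.4-fold higher (373, 333 and 465 against 30.6, 32.7 and 21.96), and the cell cycle gene Ccnd1 18.4-fold (4080.3, 3630.2 and 3286 against 209, 166 and 220.5). Lgr5, the receptor that amplifies Wnt signals, was 1121, 1103 and 1182 against 122, 129 and 139, with a spread of only 1103 to 1182 among hbHep. The 1 lower gene was Dkk4, a secreted inhibitor with few reads (5.6, 6.3 and 7.81 against 27.2, 40.4 and 10.6), whose call was lost under 12 of the 19 alternative settings. Without any 1 mouse, 14 genes were still higher.

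Promoter sequence of the higher genes was read for the letters that TCF and LEF factors, the partners of beta-catenin, are known to bind. The motifs CTTTGAT and CTTTGAA were searched on both strands in the 250 bases before each RefSeq start (GRCm38.p6). At least 1 match stood before a start of 2 of 8 higher Wnt feedback genes and 4 of 14 higher pericentral genes that have a promoter in the table, of 3 of 20 lower periportal genes, and of 7.04% of all tested genes. Axin2, Nkd1, Lef1, Glul and Oat held none within these bases, which says nothing of sites elsewhere. The 3 sequences below are promoters of higher genes with a match, shown as examples and chosen after their values were seen, with the match in capitals.
Sp5, chr2:70474673-70474922, plus strand: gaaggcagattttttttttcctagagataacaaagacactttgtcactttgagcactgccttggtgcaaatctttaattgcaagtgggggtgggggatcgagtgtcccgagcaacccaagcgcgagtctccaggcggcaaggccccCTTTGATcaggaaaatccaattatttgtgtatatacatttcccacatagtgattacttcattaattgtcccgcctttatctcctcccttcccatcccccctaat
Slc1a2, chr2:102706188-102706437, plus strand: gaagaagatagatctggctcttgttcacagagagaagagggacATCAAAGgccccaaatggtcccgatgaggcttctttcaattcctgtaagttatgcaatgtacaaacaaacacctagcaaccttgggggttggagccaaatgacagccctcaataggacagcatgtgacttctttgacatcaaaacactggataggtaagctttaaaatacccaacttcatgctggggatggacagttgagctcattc
Lect2, chr13:56548539-56548788, minus strand: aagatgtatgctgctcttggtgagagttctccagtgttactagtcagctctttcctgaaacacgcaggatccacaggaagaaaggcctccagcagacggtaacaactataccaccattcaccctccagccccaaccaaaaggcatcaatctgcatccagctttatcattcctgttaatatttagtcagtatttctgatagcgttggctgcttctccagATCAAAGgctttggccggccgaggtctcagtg
The match lies 104 bases before the start of Sp5, a transcription factor of the Wnt response that was 707, 717 and 997 against 59.9, 53.4 and 40.8. It lies 207 bases before the start of Slc1a2, a glutamate transporter, and 32 bases before that of Lect2, a secreted hepatocyte protein that was 14349, 9118 and 10761 against 2747, 1964 and 1905.

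Of 30 pericentral hepatocyte genes tested, 20 were higher and 4 lower, with a median log2 fold change of 1.59. Glul (ENSMUSG00000026473, chromosome 1, 153899929 to 153909723), the glutamine synthetase that marks the innermost pericentral hepatocytes, was 79300.3, 39480.0 and 72278 against 5879, 4288 and 4530.0, 12.6-fold higher (log2 fold change 3.65, SE 0.29, adjusted p = 4.03e-05). Oat (ENSMUSG00000030934, chromosome 7, 132557475 to 132576398), which turns ornithine into a precursor of glutamate, was 186611, 136486 and 110130.3 against 6707, 5189 and 3963, 27.3-fold higher (log2 fold change 4.77, SE 0.29, adjusted p = 8.21e-06), and Oat stood at 6699.6 in YAP1 ON tumors and 50956 in day 6 tumors. The ammonium transporter Rhbg was 15351, 9895 and 10172 against 562, 421 and 515 (adjusted p = 1.62e-06). For each of these genes the lowest hbHep mouse lay several times above the highest FAH liver. Slc22a3, an organic cation transporter, was 6279.7, 6682 and 6407 against 193, 189 and 214, 32.4-fold higher, with nearly equal values in the 3 hbHep mice (log2 fold change 5.02, SE 0.14, adjusted p = 1.83e-07). The glutamate transporter Slc1a2 was 9765, 6885 and 9311 against 582, 563 and 588, and the dicarboxylate transporter Slc13a3 4657, 4059 and 4257 against 483, 477 and 432. Other pericentral genes went the other way. Cyp2c54, a cytochrome P450 of the arachidonic acid epoxygenase group, was 798, 251 and 1412 against 12303, 7938 and 10977, 15.6-fold lower (adjusted p = 0.000535). Car3, a carbonic anhydrase abundant in liver, was 5.36-fold lower, Cyp2c50 4.88-fold and Nr1i3 (CAR), the nuclear receptor that senses phenobarbital-like drugs, 3.77-fold. Cyp2e1, a broadly pericentral ethanol oxidizing enzyme, was 213038, 97061 and 208036 against 170906, 118512 and 121015 and was not called (adjusted p = 0.697). Axin2, Lgr5 and Tbx3 are members of both this list and the Wnt list.

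**Figure D2:**
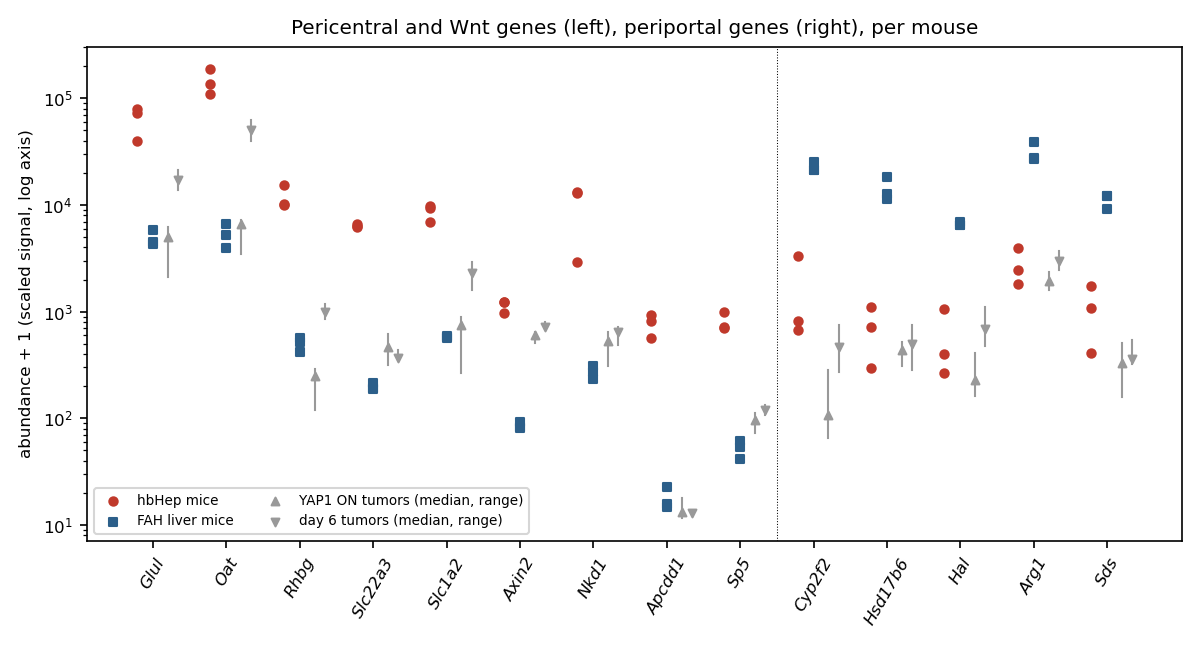
Abundance + 1 on a log axis for 9 pericentral or Wnt genes (left of the dotted line) and 5 periportal genes (right). Red circles are the 3 hbHep mice, blue squares the 3 FAH livers, and grey triangles the median and range of the 4 tumors of each tumor group; red lies above blue for all 9 genes on the left and below blue for all 5 on the right.

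Of 29 periportal hepatocyte genes tested, 25 were lower and 0 higher, with a median log2 fold change of -2.22. Cyp2f2 (ENSMUSG00000052974, chromosome 7, 27119955 to 27133660), a cytochrome P450 used as the standard portal marker, was 819.9, 666 and 3349 against 21243, 21376 and 25112, 18.4-fold lower (log2 fold change -4.20, SE 0.50, adjusted p = 0.00036). In hbHep mouse 3 the libraries of Cyp2f2 differed (1692 and 5006), yet each lay under every FAH liver. Hsd17b6, a steroid dehydrogenase, was 299, 716 and 1111 against 18243, 11496 and 12622, 22.3-fold lower (adjusted p = 8.63e-05). Hal, which starts histidine breakdown, was 397, 267 and 1053 against 6475, 6519 and 6928 (adjusted p = 0.000201). Sds, the serine dehydratase that feeds glucose production, was 1092, 411 and 1754 against 12204, 9206 and 12152 (adjusted p = 0.000384). Hal and Sds thus differed more than 10-fold, and in neither did the groups overlap. Ftcd, a later step of histidine breakdown toward folate, and Aldh1b1, a mitochondrial aldehyde dehydrogenase, were 5.97-fold and 5.94-fold lower. Without any 1 mouse, 22 to 25 of the 29 were lower and 0 higher, and the median lay between -2.33 and -1.70.

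**Figure D3:**
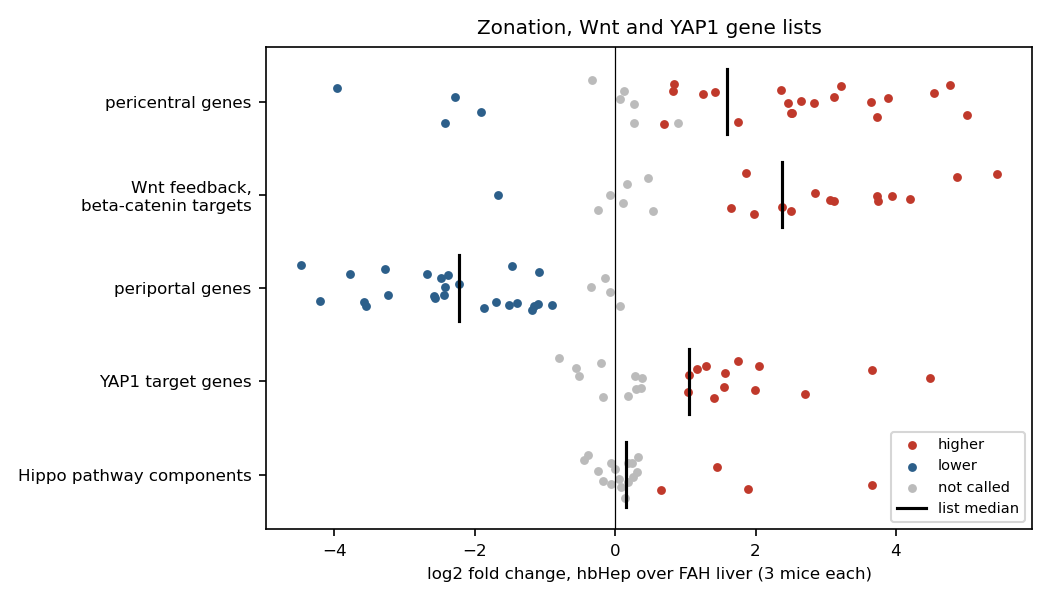
Each point is the log2 fold change of 1 tested list member, hbHep over FAH liver with 3 mice each, in red where called higher, blue where called lower and grey where not called; black bars are list medians. The median is 1.59 for pericentral, 2.37 for Wnt, -2.22 for periportal, 1.05 for YAP1 target and 0.16 for Hippo genes.

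Of 14 urea cycle and ammonia genes, 6 were lower and 3 higher (median -0.46). The 3 higher ones were the glutamine-side genes Glul, Rhbg and Oat given above. Arg1, which releases urea from arginine, was 1799.9, 2477 and 3986 against 38683, 26821 and 27678, 11.7-fold lower (adjusted p = 4.57e-05). Otc, the ornithine carbamoyltransferase, was 3924, 1986 and 5299.8 against 37798, 26603 and 26472, 8.64-fold lower (adjusted p = 0.000215). Cps1, which captures ammonia for the cycle, was 35897, 69623 and 60519 against 292829, 275801 and 288195 (log2 fold change -2.42, SE 0.39, adjusted p = 0.00189). The periportal glutaminase Gls2 was 9.67-fold lower, Asl, the argininosuccinate lyase, 3.23-fold and Ass1, the step before it, 1.87-fold. Ass1 was not called without hbHep mouse 1 or without hbHep mouse 3.

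Genes of glucose production and glycogen were lower in 11 of 22 and higher in 2 (median -0.70). Pck1, the rate-limiting enzyme of gluconeogenesis, was 17987, 10830.2 and 27724 against 55440.0, 35275 and 65035 (adjusted p = 0.0155), and was not called without FAH mouse 1 or 3. Ppp1r3b, which targets a phosphatase to glycogen, was 2285, 1150.0 and 3004 against 13658, 10627 and 12821 and Slc37a4, the glucose-6-phosphate transporter, 2279, 2065 and 2196 against 7598, 5801 and 6399.6, with adjusted p = 0.000366 and 0.000163. Khk, the fructokinase, was 3.24-fold lower. G6pc, the last step of glucose release, was 6208, 5499 and 2799 against 7242, 9349 and 13528 (adjusted p = 0.0343). The call of G6pc was lost under 7 of the 19 alternative settings, among them those without FAH mouse 2, FAH mouse 3 or hbHep mouse 3. Ppp1r3g, another glycogen-targeting subunit, was 7.5-fold higher. Without FAH mouse 3, 7 genes were lower. Of 21 glycolysis genes associated with growth, 5 were higher and 2 lower (median -0.06, and 0.12 under quantile normalization). Ldhb (7.6-fold), Pfkp (4.11-fold), Hk2 (3.41-fold) and Pkm (2.31-fold), isoforms that adult hepatocytes make little of, were higher. The phosphofructokinases Pfkm and Pfkl were lower, the call of Pfkl being lost under 7 of the 19 settings.

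General hepatocyte markers were present in both groups. Of 10 markers, 6 were lower and 0 higher (median -0.99), whereas under quantile normalization 3 were lower and 2 higher (median -0.27). Their summed abundance was 665855 to 956598 in hbHep against 1489828 to 1733105 in FAH liver. In such bulk tissue fewer cells of a type and less RNA per cell cannot be told apart. Alb, serum albumin, was 74703, 54508 and 91505 against 215528, 169978 and 188082 (log2 fold change -1.40, SE 0.37, adjusted p = 0.0199), and Ttr, the thyroxine carrier, was 83473, 74524 and 94345 against 336655, 267839 and 248599 (log2 fold change -1.75, SE 0.38, adjusted p = 0.00876). Apoa1, the main HDL protein, was 89925, 52809 and 100039 against 178504, 134782 and 126908 and was not called (adjusted p = 0.114). Without hbHep mouse 1 only 3 of the 10 were lower. Alb was not called without hbHep mouse 1, FAH mouse 2 or FAH mouse 3. Of 31 hepatocyte secreted proteins, 15 were lower and 0 higher (median -0.89); under quantile normalization the median was -0.13, with 8 lower and 5 higher. Among the 15, the protease inhibitors Serpina1c, Serpina1a and Serpina3k were 26.4-fold, 12.1-fold and 11.4-fold lower, and the terminal complement component C9 was 321, 49.7 and 757 against 6900.1, 5134 and 4065. Members of the Serpina families share sequence, so reads could be split between them and a single member is uncertain.

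Hepatocyte transcription factors and nuclear receptors were called about as often as all genes tested, of which 26.1% were called. Of 28 such genes, 6 were lower, 2 higher and 20 not called (median -0.38), where 11.8% of all genes were lower and 14.3% higher. Hnf4a, the central hepatocyte factor, was 2258, 1869 and 2609 against 3325, 2511 and 3047 and was not called (adjusted p = 0.132). Nr0b2 (SHP), the repressor induced by bile acids, was 918, 1013 and 974 against 4353, 2733 and 3784 (adjusted p = 0.000147), and Nr1h4 (FXR), the bile acid receptor, 2779, 1746 and 2814 against 8107, 5731 and 6511 (adjusted p = 0.00137). Both were lower in every hbHep mouse than in every FAH liver. Onecut1 was 1066, 176 and 1106 against 2389, 2349 and 3009, with hbHep mouse 2 far under the other two, and was not called when any 1 FAH mouse was left out. Ahr, the dioxin receptor, was 2.69-fold higher. Leaving out any 1 FAH mouse left 3 lower genes.

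Of 39 cytochrome P450 genes, 14 were lower and 6 higher (median -0.58), and without FAH mouse 1 or FAH mouse 2, 8 were lower. Cyp2b10, the classical target of Nr1i3, was 6.15, 29.1 and 15.1 against 610.0, 495 and 475, 34.6-fold lower (log2 fold change -5.11, SE 0.44, adjusted p = 6.78e-05). Cyp2u1, a fatty acid hydroxylase, was 144, 215 and 187 against 1477, 1691 and 1428 (adjusted p = 7.48e-06). Cyp3a11, the main drug-metabolizing P450 of mouse liver, was 126112, 75143 and 142069.8 against 396562, 233838 and 252486 and lay at the threshold (adjusted p = 0.0495), not called under 13 of the 19 alternative settings. Cyp2c39 was 4.81-fold and Cyp4a12b 3.61-fold higher, single members of families whose reads can be shared. Of 39 phase II and glutathione enzymes, 15 were lower and 6 higher (median -0.66, and -0.06 under quantile normalization). The share of higher genes in either list was close to the 14.3% of all genes tested. The sulfotransferases split: Sult2a8 was 827, 231 and 981 against 23731, 16008 and 14902 and Sult5a1 16.6, 13.6 and 43.4 against 868, 596 and 411, whereas Sult2a1 was 86.8, 274 and 74.8 against 1.36, 4.33 and 8.23 and Sult2a2 135, 269.9 and 199 against 0, 0 and 6.9.

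Of 28 bile acid genes, 12 were lower, 4 higher and 12 not called (median -0.54). The share of higher genes was near the 14.3% of all genes tested, of which 11.8% were lower. Cyp7a1, the rate-limiting enzyme of the classical pathway, was 17471, 5636 and 12166 against 8233, 7306 and 5397 and was not called (adjusted p = 0.24). Cyp8b1, which makes the cholic acid branch, was 832, 1033 and 2664 against 18541, 18473 and 14744 and Cyp7b1, of the alternative pathway, 2089.8, 1001 and 2825 against 33987, 29703 and 16683; both were over 10-fold lower (adjusted p = 0.000144 and 0.000147). The uptake carrier Slc10a1 (NTCP) was 2407, 1829 and 4638 against 20835, 16669.8 and 17017 (adjusted p = 0.000277). The export pump Abcc4 was 6333, 21672 and 11101 against 2891, 1992 and 2602 (adjusted p = 0.00257), and the sinusoidal carrier Slco1a4 was 10.03-fold higher. The uptake carrier Slco1a1 was lower. The exporters Abcc2 and Abcb4 were called as higher, but Abcc2 was not without FAH mouse 1 or 2, nor Abcb4 without FAH mouse 2 or 3 or hbHep mouse 1 or 3. Without FAH mouse 2, 2 genes were higher, and without hbHep mouse 2, 7.

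In a list of 12 genes made for tyrosine and phenylalanine breakdown, the pathway of Fah, 5 were lower and 0 higher (median -0.52). Under quantile normalization 3 were lower and 2 higher (median -0.06). Hpd, the enzyme that NTBC blocks, was 22378, 17796 and 23512 against 38736, 29918 and 30872 and was not called (adjusted p = 0.0714), nor was Hgd, the step after it (23521, 16978 and 18966 against 18794, 14493 and 13633, adjusted p = 0.299). Fahd1, a mitochondrial relative of Fah, was 788, 770.0 and 853 against 3839, 2901 and 2936 (adjusted p = 4.47e-05). Gnmt, a glycine methyltransferase, and Aadat, an aminotransferase, were 2.37-fold and 3.72-fold lower. Fahd1, Gnmt and Aadat are not steps between phenylalanine and the Fah reaction, so the 5 lower genes are not all steps of the pathway. When FAH mouse 1 was left out, 3 of the 12 were lower.

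Of 25 cholesterol synthesis genes, 15 were higher and 0 lower (median 0.86). Hmgcs1, the HMG-CoA synthase at the start of the pathway, was 34162, 19573 and 19402 against 2929, 2809 and 3114, 7.97-fold higher (log2 fold change 2.99, SE 0.24, adjusted p = 4.03e-05). Sqle, the squalene epoxidase, was 7171, 5541 and 6819 against 792, 971 and 905 (adjusted p = 6.2e-06) and Fdps, the farnesyl diphosphate synthase, 16219, 7579.6 and 10185 against 2232, 2125 and 1875 (adjusted p = 0.00022). Day 6 tumors stood at 30954 for Hmgcs1 and 5683 for Sqle, so hbHep lay nearer to them than to FAH liver in both genes. Fatty acid synthesis and lipid storage was mixed, with 9 higher and 5 lower of 30 (median 0.24). Fasn and Acacb were 2.39-fold and 2.62-fold higher, while Srebf1, the factor that drives such genes, was 1389, 968 and 1964 against 3977, 3041 and 3234 and Elovl3 56.2, 13.4 and 54.2 against 1144, 752 and 431, both lower. Without FAH mouse 2 or hbHep mouse 1, 4 and 5 of these genes were higher, and without any 1 FAH mouse 3 were lower. Of 31 fatty acid oxidation and ketone genes, 8 were lower and 6 higher (median -0.33, and 0.10 under quantile normalization). Of all genes tested, 11.8% were lower and 14.3% higher. Acadm, the medium-chain dehydrogenase, was 5473, 5144 and 5433 against 11996, 8825 and 8649.6, and Pdk4, the kinase that shuts off pyruvate oxidation, was 134, 386 and 103 against 12.2, 9.71 and 21.5; Cpt1a, the gate of the pathway, was 3739.6, 2249.8 and 4019 against 3461, 3402 and 4041 and was not called. Without FAH mouse 2 or hbHep mouse 3, 2 oxidation genes were higher, and without hbHep mouse 1, 4 were lower.

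The major urinary proteins, pheromone carriers that male mouse liver secretes in bulk under growth hormone and androgens, had the lowest median of the 40 gene lists. All 21 Mup genes tested were lower, with a median log2 fold change of -6.60. Mup20, known as darcin, was 879, 83.6 and 2155 against 56862, 42312 and 25314, 72.4-fold lower (log2 fold change -6.18, SE 0.93, adjusted p = 0.00137). Mup3 was 1033, 114 and 3172 against 142966, 109266 and 67035, Mup21 25.8, 22.1 and 84.6 against 4529, 6352 and 1680.0 and Mup1 1499, 559.8 and 7196 against 825078, 583743 and 439019, and hbHep mouse 2 had the lowest value of each. Mup7 was 118, 86.5 and 379 against 131697, 112061 and 27763, 469-fold lower, and Mup19 20.5, 0 and 52.5 against 7024, 5216 and 4242, with hbHep mouse 2 listed at 0. Members of this family are nearly identical and share reads, so their summed abundance is the safer measure: the sums ran from 2692 to 82958 in hbHep, against 2053471 to 3657941 for the controls. The technical libraries of Mup19 were 0 and 41.1 in mouse 1, 0 and 0 in mouse 2, and 29.9 and 75.1 in mouse 3, so single members at these low values are imprecise. Without any 1 mouse, 20 or 21 of the genes were lower, and the median was -5.14 without hbHep mouse 2 and -7.55 without hbHep mouse 3.

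Of 18 male-biased genes of mouse liver tested, 15 were lower and 1 higher (median -3.33), with Mup20 shared between both lists. Selenbp2, a selenium-binding protein, was 84.9, 63.00 and 209 against 12435, 13533 and 6969, 101-fold lower (log2 fold change -6.65, SE 0.41, adjusted p = 8.45e-06), and the carrier Slco1a1 was 689.6, 794 and 677 against 12263, 9267 and 5696 (adjusted p = 1.92e-05). Elovl3, Sult5a1, Cyp7b1 and Cyp2u1, given above, belong to this list too. Of 19 female-biased genes, 9 were higher and 2 lower (median 0.93). Prom1, a membrane protein also used as a progenitor marker, was 611, 977 and 728 against 34.3, 114 and 93.8 and Atp6v0d2, a proton pump subunit, 395, 547 and 210.1 against 54.4, 38.4 and 50.99; Cyp3a41a was 769, 236 and 1005 against 32.7, 43.3 and 30.3, against 26611 in day 6 tumors. In day 6 tumors the Y-linked genes Uty and Ddx3y were far lower than in the 6 mice, and the part of sex in their Cyp3a41a level was not tested. Cyp2b9 was at most 1.28 in hbHep and was too low to be tested. Only 5 female-biased genes were higher without FAH mouse 1. Of 21 genes of the growth hormone, IGF and insulin axis, 5 were higher and 4 lower (median -0.16, and 0.13 under quantile normalization). All genes tested were higher in 14.3% and lower in 11.8%. Igf1, the main product of growth hormone action in liver, was 4885, 2586 and 5579 against 17641, 14460.3 and 13564 (adjusted p = 0.00132) and its carrier subunit Igfals 652, 525 and 841 against 3178, 2476 and 2303 (adjusted p = 0.000168). Both were lower in every hbHep mouse. Igfbp1, a binding protein raised in fasting and stress, was 7111, 31463 and 8439.6 against 804, 1077 and 1850.2, highest in mouse 2 (adjusted p = 0.00133). The receptor Ghr was 7335, 4180.0 and 7503 against 13251, 10781 and 10337 and Igfbp2, the fetal binding protein, 887, 3540.3 and 5599 against 15991, 8839 and 11371, both lower. Neither was called without FAH mouse 1, nor Ghr without FAH mouse 2 or 3. Without FAH mouse 2 or hbHep mouse 3, 2 genes of the axis were higher, and without FAH mouse 1, 2 were lower.

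All 24 tested of 26 listed mitosis genes were higher (median 1.97), although Bub1 and Cenpe were too low to be tested. Mki67, the proliferation marker, was 938, 615 and 687 against 58.6, 64.4 and 84.8, 10.6-fold higher (log2 fold change 3.41, SE 0.23, adjusted p = 1.27e-05). Kif20a, a kinesin of cytokinesis, was 613, 419.6 and 575 against 119.9, 92.7 and 133, Tpx2, a spindle protein, 329, 233 and 239 against 35.7, 53.1 and 36.9, and the cyclin Ccnb1 206, 106 and 139 against 14.3, 28.9 and 23.8. These levels lay between those of FAH liver and YAP1 ON tumors (Mki67 2025, Tpx2 622, Ccnb1 405). Without any 1 mouse, 20 to 24 were higher. At a filter of 100 only 14 passed the filter and all 14 were higher. Members under 100 in FAH liver, such as Mki67, pass that filter only through hbHep, so this count is no support. DNA replication genes did not share this pattern: 5 of 30 were higher and 3 lower (median 0.18, and -0.09 under quantile normalization), shares near those of all genes. Uhrf1, which maintains DNA methylation, was 210.3, 266 and 280.3 against 67.3, 68.98 and 63.7 and Cdc6, a licensing factor, 55.6, 60.9 and 43.01 against 6.26, 4.43 and 16.6. Pcna, the sliding clamp, was 436, 560.0 and 374 against 636, 439 and 495 and was not called (adjusted p = 0.519), and the replication factor Mcm10 was 556, 163 and 634 against 4044, 3456 and 2644, 8.6-fold lower (adjusted p = 0.000918). Of 26 CDK inhibitors and p53 targets, 11 were higher, 2 lower and 13 not called (median 0.51). Cdkn1a (p21) was 169, 591 and 152 against 29.3, 32.5 and 46.97, highest in mouse 2 (adjusted p = 0.00262), Cdkn2c (p18) 917, 584 and 623 against 163, 127 and 86.02 (adjusted p = 0.000201) and Cdkn2a 33.8, 11.9 and 30.7 against 1.41, 1.49 and 1.47 (adjusted p = 0.00288). Mdm2, a direct p53 target, was 658, 1006 and 680.2 against 577, 500.1 and 499 and was not called (adjusted p = 0.0637).

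Of 20 fetal liver and hepatoblastoma genes tested, 9 were higher and 1 lower (median 0.93). Igf2, the fetal growth factor, was 2404, 3005 and 9546 against 15.5, 44.8 and 21.5, 159.7-fold higher (log2 fold change 7.32, SE 0.51, adjusted p = 1.72e-05), and it stood at only 26.3 in YAP1 ON tumors and 42.1 in day 6 tumors. Afp, alpha-fetoprotein, the serum marker of hepatoblastoma, was 972, 18885 and 3570.1 against 169, 120.3 and 136 (log2 fold change 4.83, SE 0.81, adjusted p = 0.00248), against 115 in YAP1 ON tumors and 46.6 in day 6 tumors. Both genes were thus above every FAH liver in all 3 hbHep mice, and above both tumor medians. Both were uneven between the libraries of 1 mouse. The technical libraries of Igf2 were 479 and 4329.6 in mouse 1, 2957 and 3054 in mouse 2, and 9102 and 9991 in mouse 3. Those of Afp were 1010.1 and 933 in mouse 1, 16228 and 21543 in mouse 2, and 6538 and 603 in mouse 3. Across all tested genes, 438 differed by more than 4-fold within some technical pair, 114 of them called genes. Gpc3, a glypican also used to mark hepatoblastoma, was 242, 1222 and 626 against 99.9, 69.03 and 103, against 6520 in YAP1 ON tumors and 543 in day 6 tumors. Cpe, a carboxypeptidase, was 17.1-fold and Bex1, an X-linked fetal gene, 14.3-fold higher. Cholangiocyte and progenitor markers were mixed, with 4 higher and 2 lower of 16 tested (median 0.52), where 14.3% of all genes were higher and 11.8% lower. Prom1 and Cd24a (77.2, 119 and 68.6 against 22.6, 19.4 and 13.3) were higher, whereas Sox9 (57.8, 130.2 and 113 against 67.6, 72.1 and 108) and Krt7 (6.05, 6.72 and 12.2 against 10.7, 21.3 and 5.65), which define bile duct cells, were not called. The 2 lower genes were Aqp1 and Onecut1, and leaving out any 1 FAH mouse left 0 lower.

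**Figure D4:**
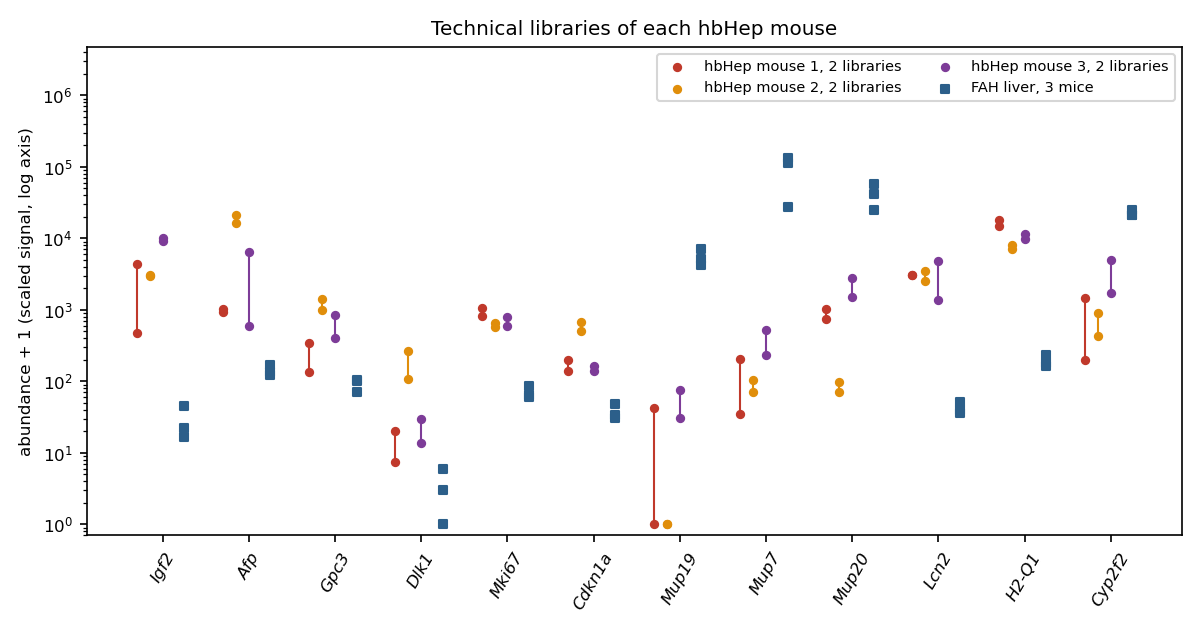
Abundance + 1 on a log axis for 12 genes. Each line joins the 2 technical libraries of 1 hbHep mouse (red mouse 1, orange mouse 2, purple mouse 3), and blue squares are the 3 FAH livers; the longest lines are those of Mup19 and Igf2 in mouse 1 and of Afp in mouse 3, while the libraries of Mki67 nearly coincide.

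Of 27 NRF2 response genes, which counter oxidative stress, 8 were higher and 1 lower (median -0.11, and 0.31 under quantile normalization). The cystine importer Slc7a11 was 682, 12780.2 and 1193 against 71.8, 81.5 and 72.7 (adjusted p = 0.00299), higher in all 3 hbHep mice and by far the highest in mouse 2. Gclc, the rate-limiting enzyme of glutathione synthesis, was 2165, 12156 and 3589 against 8096, 4054 and 4833, and Nqo1, a quinone reductase, 1888, 4866 and 1811 against 2500.3, 1387 and 1829. In both genes mouse 2 alone lay above every FAH liver, and neither was called (adjusted p = 0.768 and 0.385). Gsta1, a glutathione transferase, had the same shape, 1204, 13674 and 2149 against 9367, 4955 and 6041, and was not called. Hmox1, which degrades heme, was 1456, 2457 and 1023 against 698, 297 and 342 (adjusted p = 0.00501). Leaving out FAH mouse 1 left 5 higher genes and leaving out FAH mouse 2 left 4, while without hbHep mouse 2 the lower genes numbered 5. Of 30 amino acid and ER stress genes, 8 were higher and 10 lower (median -0.36). Vldlr, a lipoprotein receptor, was 2069, 2814 and 2339 against 181, 117 and 120.0, 17.4-fold higher (adjusted p = 2.72e-06), and Atf3 was 411, 611 and 479 against 119, 22.1 and 60.8. The ER chaperone Hyou1 was 3145, 3161 and 4458 against 9560.2, 10156 and 6486 and Pdia6 1705, 1132 and 1610.0 against 4110.3, 3343 and 2707, both lower. Hspa5 (BiP), the main ER chaperone, was 4340.4, 3262 and 5046 against 7458, 6813 and 6119 and called as lower, a call lost under 7 of the 19 alternative settings, among them those without FAH mouse 1, FAH mouse 2, hbHep mouse 1 or hbHep mouse 2. Atf4 itself was not called (adjusted p = 0.317). The counts without FAH mouse 1, 2 and 3 were 4 higher and 6 lower, 5 and 5, and 5 and 9.

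Acute phase and complement genes were lower in 9 and higher in 6 of 31 (median -0.47), and under quantile normalization lower in 6 and higher in 9 (median -0.10). The shares over all genes tested were 11.8% lower and 14.3% higher. Lcn2, lipocalin 2, an iron-scavenging protein induced by inflammation, was 3081, 3001 and 3122 against 38.1, 34.9 and 50.9, 73.5-fold higher (log2 fold change 6.20, SE 0.18, adjusted p = 1.83e-07), close to its level in tumors (3876 in YAP1 ON tumors and 3155 in day 6 tumors). Mt2, a metallothionein, was 1880.1, 6744 and 1039.6 against 157, 69.7 and 108 and Il1rn, the antagonist of the interleukin-1 receptor, 217, 176 and 315 against 32.8, 35.3 and 39.8, both higher. The serum amyloid gene Saa1 was 2091, 311 and 1562 against 2308, 1695 and 1419.6 and was not called (adjusted p = 0.334), and Serpina3m was 8.92-fold lower. The orosomucoid genes split, with Orm2 4065, 4305 and 2249.7 against 537, 344 and 277 and Orm3 59.1, 98.7 and 62.1 against 576, 352 and 526, close relatives that can share reads. Of 21 iron and heme genes, 5 were lower and 3 higher (median -0.09, and 0.18 under quantile normalization), the share of higher genes being near the 14.3% of all genes. Hamp, hepcidin, the hormone that limits iron uptake, was 10913, 2912 and 7369 against 20477, 13387 and 18580.3 (adjusted p = 0.0274; not called without FAH mouse 1 or 3), and its upstream receptor Tfr2 was 2.1-fold lower. The lower iron genes numbered 2 without FAH mouse 1 or FAH mouse 2, and 3 without FAH mouse 3. Circadian clock genes were lower in 5 of 19 and higher in 0 (median -0.80). Arntl (BMAL1), the core activator, was 95.9, 987 and 98.6 against 134, 134 and 95.6, so mouse 2 alone stood about 10 times above the rest, and it was not called (adjusted p = 0.457). The time of day of sampling is not stated in the labels. The lower clock genes numbered 2 without FAH mouse 1, 3 without FAH mouse 2 or FAH mouse 3, and the median was -0.22 without hbHep mouse 2.

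Interferon response genes were higher in 26 of 30 and lower in 0 (median 2.00). Usp18, a brake on interferon signaling that interferon itself induces, was 1616, 1079.9 and 1029 against 60.97, 50.6 and 63.1, 20.6-fold higher (log2 fold change 4.37, SE 0.22, adjusted p = 2.53e-06). Gbp6, a guanylate-binding protein, was 4052, 3527 and 1725 against 294, 239.6 and 222, Oasl1 253, 266 and 131 against 14.3, 17.9 and 20.7 and Isg15 543, 469 and 285 against 97.5, 104 and 123. In each of these the groups did not overlap, and mouse 3 was the lowest of the hbHep mice. Without any 1 mouse, 23 to 26 of the 30 were higher. Of 25 MHC class I and II genes, 17 were higher and 0 lower (median 1.05). H2-Q1, a non-classical class I gene, was 16407, 7587 and 10638 against 231, 163 and 177, 58.1-fold higher (log2 fold change 5.86, SE 0.27, adjusted p = 1.62e-06), and H2-Q2 was 145, 125 and 159.6 against 5.97, 1.37 and 0. Alleles of this region differ between mouse strains and can change how many reads a gene receives, and the strains are not given. B2m, the invariant light chain of class I, was 61436, 27662 and 38630.2 against 56138, 38005 and 32813 and was not called (adjusted p = 0.962). Ciita, the master regulator of class II, was 521, 236 and 619.8 against 104, 132 and 108 and Cd74, the invariant chain, 10829, 3199 and 11701 against 2658, 1792 and 1745, lowest in mouse 2. Without hbHep mouse 1, 10 of the 25 were higher, and without FAH mouse 2 or FAH mouse 3, 11.

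Of 21 macrophage and Kupffer cell markers, 13 were higher and 0 lower (median 1.49), and their summed abundance ranged from 14183 to 38219 in hbHep against 8408 to 13672 for the controls. Gpnmb, a marker of lipid-laden macrophages, was 614, 3396 and 296 against 20.9, 18.9 and 16.99 (adjusted p = 0.000566), highest in mouse 2, and the scavenger receptor Marco was 696, 310.3 and 117 against 27.8, 22.2 and 19.3 (adjusted p = 0.00112). Clec4f (4836, 2445 and 1713 against 2171, 1035 and 1333) and Adgre1 (621, 202 and 192 against 226, 116 and 86.5) were among the 8 markers not called. So were Trem2 and Itgam (log2 fold changes 0.02 and 0.03), Timd4 (0.17), Vsig4 (0.80), Mrc1 (-0.50) and Cd163 (-1.22). The Kupffer cell marker Cd5l was higher (1.75), and so were Ccr2 (1.57), Fcgr1 (2.21), Cx3cr1 (2.40) and Ms4a7 (3.36). Resident and recruited macrophages were thus not told apart. Without FAH mouse 2, 8 macrophage markers were higher. The counts were 12 higher and 2 lower without hbHep mouse 1. Of 21 T, NK and B cell markers listed, 15 passed the filter, and 8 were higher and 0 lower (median 1.18). The sums of the listed markers were 741 to 1959 against 667 to 871. Markers such as Cd3e passed the filter only through hbHep, so this count of higher markers is no support. At a filter of 100, 2 were tested and 1 was higher. Cd3e, a chain of the T cell receptor complex, was 49.2, 39.3 and 34.3 against 4.36, 12.2 and 5.19 and Jchain, which joins secreted antibodies, 799, 181 and 1301 against 113, 41.2 and 68.7. Without hbHep mouse 1, 3 of these were higher. Of 13 neutrophil markers only 5 could be tested, and 2 were higher (median 1.10), with 0 higher without FAH mouse 1 or without hbHep mouse 1. Ly6g lay at 0.861 to 4.28 in hbHep. The part of immune cells in the interferon and MHC differences was not tested.

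Few endothelial markers passed the test, where 26.1% of all genes were called. The share of erythroid markers called lay near that of all genes. Of 22 endothelial markers, 1 was lower, Clec4g (1327, 1058 and 611 against 2367, 1699 and 1788), and 0 were higher (median -0.31). Pecam1 (1197, 938 and 645 against 1143, 897 and 873) and Cdh5 (1113, 712 and 499 against 722, 808 and 773) overlapped between the groups. The FAH samples are labelled as hepatocytes in 1 field and as liver in another, and these endothelial transcripts were detected in all 3. Without hbHep mouse 1, 4 endothelial markers were lower, and without FAH mouse 1, 0. Of 25 stellate cell, fibroblast and matrix markers, 6 were higher and 0 lower (median 0.17). Pdgfrb was 1209.7, 705 and 796 against 487, 462 and 503 (adjusted p = 0.0143), and Acta2, which marks activated stellate cells, 38.02, 24.1 and 46.5 against 23.6, 55.2 and 41.5 and not called. Col1a1, a fibrillar collagen chain, was 37.00, 15.7 and 35.04 against 8.28, 10.6 and 11.4, at 195 in YAP1 ON tumors and 105 in day 6 tumors, and its call as higher was lost under 12 of the 19 alternative settings. The count of 6 fell to between 1 and 3 without hbHep mouse 1 (1), hbHep mouse 3 (2) or FAH mouse 1 (2), 2 (1) or 3 (3). Of 9 red blood cell precursor markers tested, 2 were lower, Alas2 (1085, 585 and 1171 against 2162, 2253 and 1538) and Klf1, and 0 higher (median -0.24, and 0.13 under quantile normalization); 1 was lower without FAH mouse 1 or FAH mouse 2.

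**Figure D5:**
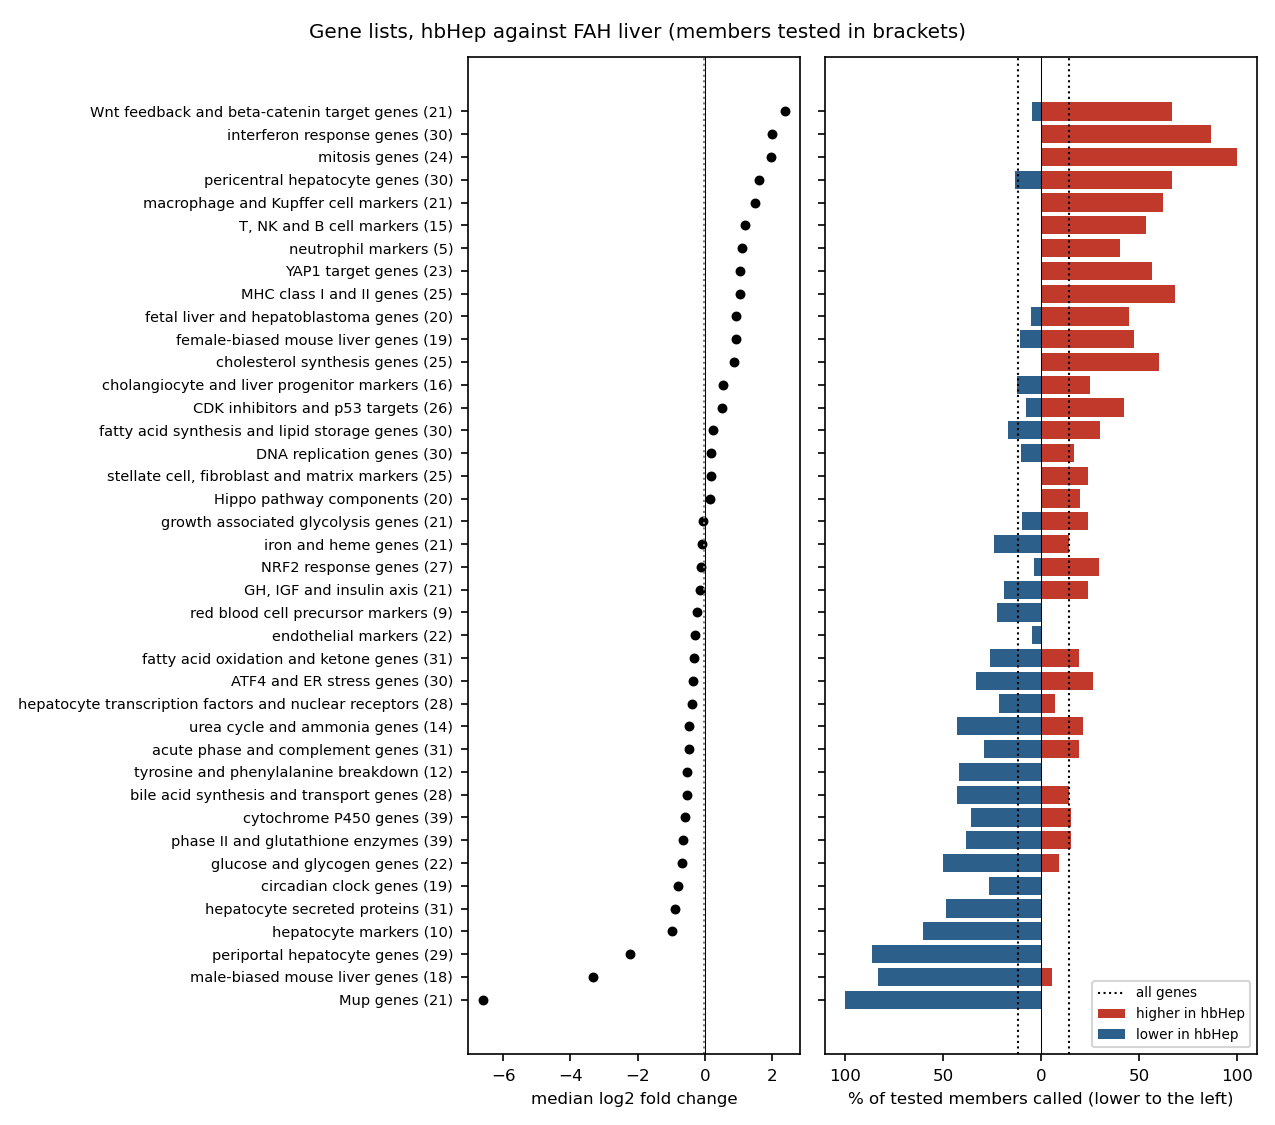
Left, the median log2 fold change of the tested members of each of 40 gene lists, hbHep over FAH liver, with the dotted line at the median of all genes (-0.03). Right, the percentage of tested members called higher (red, to the right) and lower (blue, to the left), with dotted lines at the shares over all genes tested, 14.3% and 11.8%; Wnt, interferon and mitosis genes lie at the top and Mup genes at the bottom.

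Among single genes with a mean abundance of at least 200 in 1 group and no overlap between mice, the 15 largest differences upward ran from Duoxa1 to Ubd. Duoxa1 (ENSMUSG00000027224, chromosome 2, 122303540 to 122313763), the maturation factor of the hydrogen peroxide producing oxidase DUOX1, was 2469, 1159 and 1812 against 2.08, 7.06 and 4.58, 335-fold higher (log2 fold change 8.39, SE 0.39, adjusted p = 1.83e-06). Duox1 (ENSMUSG00000033268, chromosome 2, 122313010 to 122347972), the oxidase itself, overlaps Duoxa1 at its start, so reads of the shared stretch can be split between them, and it was 3015, 1039.5 and 3329 against 10.9, 15.9 and 9.08, 173-fold higher (log2 fold change 7.43, SE 0.41, adjusted p = 4.74e-06). Neither was present in the tumors beyond trace values (medians of 1.12 to 10.7), and mouse 2 was the lowest hbHep mouse in both. Mogat2, a monoacylglycerol acyltransferase of the gut, was 1098, 1486 and 1028 against 6.01, 6.4 and 10.1 and Acsm4, an acyl-CoA synthetase, 874, 649 and 477 against 2.72, 5.77 and 4.54. Ly6d, a surface protein of the Ly6 family, was 8177, 8103 and 7802 against 89.8, 49.03 and 69.6, 117-fold higher with a spread of only 7802 to 8177 among hbHep (log2 fold change 6.87, SE 0.21, adjusted p = 1.87e-07). Myot, a muscle filament protein, was 373, 431 and 275 against 0, 1.49 and 1.56, and the neuronal pentraxin Nptx1 1461, 535 and 1453 against 18.03, 19.98 and 6.3. Sult1e1, the estrogen sulfotransferase, was 573, 595 and 65.8 against 6.8, 0 and 3.03, and Sprr1a, a cornified envelope protein, 336, 429.8 and 169.6 against 6.8, 0 and 1.51. Ubd, a ubiquitin-like protein induced by inflammation, was 663, 202 and 663 against 8.16, 4.33 and 9.08 and the antibody gene Ighg1 2039, 372 and 532 against 7.4, 6.62 and 19.04. The others of the 15, Igf2, Sult2a2, Lcn2 and H2-Q1, are given above. Of the 15 largest differences downward, 14 were Mup genes and the other was Selenbp2.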

How the data were processed

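RNA was sequenced from liver of 3 hbHep mice (2 technical libraries each) and 3 FAH mice on NTBC. The authors deposited a signal per gene and library, whose unit was read from a name as scaled reads per base. The submitters' processing notes list bcl2fastq, kallisto 0.45.0, sleuth and GRCm38.p6; for bcl2fastq and sleuth the version is not given in the sources used here. Signal values are not counts, so no count model was used. Technical libraries were averaged per mouse first, and the signal was then scaled by median-of-ratios factors over the 14 resulting samples. Values of single technical libraries were divided by the factor of their mouse. Genes with at least 10 in at least 3 of the 6 mice were kept. Values were tested as log2(value + 1) with limma 3.58.1 (R 4.3.3, eBayes with trend, Benjamini-Hochberg over all 16498 genes), so fold changes of low genes are understated. Genes under 10 in every FAH liver, such as Cdkn2a, H2-Q2, Sult2a2 and Ankrd1, passed the filter only through hbHep, and Dkk4 only through FAH liver. For such low genes the counts of list members called in that direction are no support. The code was tested on simulated data. Whether the 3 mice of a group are independent beyond their labels is not stated.

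Members and lists were chosen with earlier results of these data known. Named genes are Yap1, Ctnnb1 and Fah, the 15 largest called differences each way without overlap, with a mean of at least 200 in the higher group and no Gm, Rik or pseudogene name, the first 3 genes of each list, and up to 4 called members per direction and list with the smallest adjusted p. Others, such as Sp5, Lect2, Uty and Gm10800, were chosen after their values were seen. Some genes that the rule names are not reported here. Gene positions are from RefSeq (GRCm38.p6), matched by symbol; 29590 of 36555 genes had one. Promoter windows on chromosome 18 were left out. Alternatives were other scalings, pseudocounts (0.1 and 10), filters (none and 100), models and technical libraries, and leaving out each mouse.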

Additional observations from a re-analysis of the deposited data

How the results depend on the processing

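Of the 4305 called genes, 67.9 to 99.5% were also called under each of the 19 alternatives. Leaving out 1 mouse gave 1750.0 to 2167 higher and 1235 to 1726 lower genes, and a model of all 4 groups gave 3342 higher and 3071 lower. Among the named genes, 283 values over all alternatives lost the threshold, 36 gained it and 0 called directions reversed. Same-numbered mice correlated in their deviations at 0.199, 0.0708 and 0.0351, and differently numbered mice at -0.145 to 0.0611. So few values cannot decide whether the numbers pair the mice. With the replicate block 2471 genes were higher and 2243 lower. With a pseudocount of 10, the median was 0.93 for T, NK and B cell markers, 1.60 for mitosis genes and 0.72 for fetal liver and hepatoblastoma genes. With a filter of 100, the median was 0.12 for cholangiocyte and liver progenitor markers, 2.85 for Wnt feedback and beta-catenin target genes, 0.71 for YAP1 target genes, -0.48 for ATF4 and ER stress genes, 3.38 for fetal liver and hepatoblastoma genes, -3.71 for male-biased mouse liver genes, 2.21 for female-biased mouse liver genes and -0.16 for iron and heme genes. Genes under 100 in every FAH liver, such as Igf2, pass the filter of 100 only through hbHep, so higher medians under it are no support. Without a filter, the median was 0.82 for cholangiocyte and liver progenitor markers, 1.87 for Wnt feedback and beta-catenin target genes and 0.73 for fetal liver and hepatoblastoma genes. Under quantile normalization, the median was -0.27 for hepatocyte markers, 0.75 for T, NK and B cell markers, 2.15 for pericentral hepatocyte genes, -1.50 for periportal hepatocyte genes, -0.16 for urea cycle and ammonia genes, -0.13 for hepatocyte secreted proteins, -0.35 for cytochrome P450 genes, -0.057 for phase II and glutathione enzymes, -0.30 for bile acid synthesis and transport genes, -0.060 for tyrosine and phenylalanine breakdown, 0.46 for fatty acid synthesis and lipid storage genes, 0.096 for fatty acid oxidation and ketone genes, -0.30 for glucose and glycogen genes, 1.67 for mitosis genes, -0.089 for DNA replication genes, 0.31 for NRF2 response genes, -0.12 for ATF4 and ER stress genes, 0.59 for fetal liver and hepatoblastoma genes, 0.13 for GH, IGF and insulin axis and 0.18 for iron and heme genes. With technical library 1 alone, the median was 0.81 for cholangiocyte and liver progenitor markers, -2.70 for periportal hepatocyte genes, 2.17 for mitosis genes and 0.78 for fetal liver and hepatoblastoma genes. With technical library 2 alone, the median was 0.28 for cholangiocyte and liver progenitor markers, -1.76 for periportal hepatocyte genes, -0.57 for phase II and glutathione enzymes, 1.74 for mitosis genes, -0.30 for ATF4 and ER stress genes and 0.76 for fetal liver and hepatoblastoma genes. Leaving out 1 mouse at a time moved the median over the range 1.09 to 1.65 for T, NK and B cell markers, 1.48 to 1.70 for pericentral hepatocyte genes, -2.33 to -1.70 for periportal hepatocyte genes, 0.96 to 1.27 for YAP1 target genes, 0.055 to 0.16 for Hippo pathway components, -0.54 to -0.34 for urea cycle and ammonia genes, -0.78 to -0.39 for phase II and glutathione enzymes, -0.67 to -0.41 for bile acid synthesis and transport genes, 0.12 to 0.45 for fatty acid synthesis and lipid storage genes, -0.43 to -0.26 for ATF4 and ER stress genes, 0.70 to 1.16 for fetal liver and hepatoblastoma genes, -0.52 to -0.037 for acute phase and complement genes, -1.10 to -0.22 for circadian clock genes and -0.24 to 0.023 for iron and heme genes. The cause of these shifts was not tested. Lists whose median changed sign under quantile normalization are those of fatty acid oxidation, DNA replication, NRF2, the growth hormone axis, iron, glycolysis and red blood cell precursors; the NRF2, glycolysis, iron and red blood cell medians, all near 0, also did so when 1 mouse was left out. Read depth is known only roughly, which limits low genes, and 3 mice against 3 cannot give an exact permutation p under 0.1.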

Other observations

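Within hbHep, mouse 2 (day 114) was the highest or lowest of the 3 in the genes named here. It had the highest Slc7a11 (682, 12780.2 and 1193 in mice 1, 2 and 3), Gclc (2165, 12156 and 3589), Gpnmb (614, 3396 and 296), Igfbp1 (7111, 31463 and 8439.6) and Cdkn1a (169, 591 and 152). It had the lowest Mup20 (879, 83.6 and 2155) and Onecut1 (1066, 176 and 1106). Both technical libraries of mouse 2 showed this for Slc7a11 (672 and 692 in mouse 1, 11134 and 14426 in mouse 2, and 1216 and 1169 in mouse 3). These genes were chosen after their values were seen, and 3 mice allow no test of 1 against the others.

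Of the called genes, 3 were listed at 0 in all 3 FAH livers (Gm49394, Igkv6-25 and Sult2a5), and 0 were listed at 0 in all 3 hbHep mice. No fold is given for them.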
